A study of Homo sapiens with 30 samples.

Results

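The genes described here take haem apart or move and store iron, and were measured in A549, an established human cell line that came from a lung carcinoma. They are the haem oxygenases HMOX1 and HMOX2, the repressor BACH1, the biliverdin reductases BLVRA and BLVRB, the ferritin chains FTH1 and FTL, the transferrin receptor TFRC, the iron exporter SLC40A1 and the haem transporter SLC48A1. They were chosen by symbol, and their Ensembl identifiers are 10 of the 60675 in the table of expected counts. All 10 passed the filter on low counts, and the lowest count of any of them in a library was 483, for BACH1.

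Messenger RNA of the cells was sequenced after 24 h with an ethanol extract of a Korean herbal formula or with the solvent dimethyl sulfoxide alone, called vehicle. Vehicle had 3 libraries, and Soshiho-tang and Yijin-tang had 3 libraries each at 500, 100 and 20 µg/mL. Okbyeongpung-san had 2 libraries at each of these doses. For Soyo-san there was 1 library a dose, whose values are shown untested. Solvent strength in the vehicle is 0.1% by the labels but 2% by the series text, and the plants in each formula are not named in the labels. No genotype differs between groups. Nothing in the labels says that replicates were separate cultures, so p-values measure the spread between these libraries, which may be technical. This spread was estimated over all 10 groups with replicates together. For Okbyeongpung-san 500 µg/mL, whose 2 libraries differ widely, it is therefore not the spread of its own libraries. By the titles, batch D held every Soyo-san library and, at each dose, Okbyeongpung-san replicate 3. All others were of batch E, and the meaning of the letter is not given.

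Haem oxygenase opens the haem ring and releases iron, carbon monoxide and biliverdin, which biliverdin reductases turn into bilirubin. BACH1 sits on the HMOX1 enhancers until haem binds it, and the activator NRF2 then takes its place. Freed iron is stored in ferritin, a shell of heavy chains (FTH1), which oxidise iron, and light chains (FTL), which help it to mineralise. TFRC brings in transferrin-bound iron, SLC40A1, known as ferroportin, exports iron, and SLC48A1, known as HRG1, carries haem out of the endolysosome. In iron-poor cells, iron regulatory proteins bind a hairpin called the iron-responsive element, which holds back translation when it lies before the coding sequence and protects the messenger RNA when it lies after it. RNA levels as measured here therefore show transcript amounts and not the translation of ferritin or ferroportin.

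The hairpin is shown because it separates the members by a known mode of control. The genes were chosen for haem and iron handling, which this hairpin is known to control, so its share among them is no test. The GENCODE 29 transcripts of the members on GRCh38 were searched for a C, 5 bases, the loop CAGTGN and a stem of 5 pairing bases on the transcribed strand. FTH1, FTL and SLC40A1 each held 1 match in the 5′ UTR and TFRC held 4 in the 3′ UTR, while these letters were not found in the transcripts of the other 6 genes. Over all 19664 protein-coding transcripts searched, 241 (1.23%) held a match. Capitals mark the bulged C and the loop.
FTL, chr19:48965336-48965362, plus strand: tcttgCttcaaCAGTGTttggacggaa
SLC40A1, chr2:189580662-189580688, minus strand: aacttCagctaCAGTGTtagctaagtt
TFRC, chr3:196050980-196051006, minus strand: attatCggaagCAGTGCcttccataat
TFRC, chr3:196050576-196050602, minus strand: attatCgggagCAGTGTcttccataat
TFRC, chr3:196050511-196050537, minus strand: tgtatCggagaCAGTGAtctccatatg
TFRC, chr3:196050464-196050490, minus strand: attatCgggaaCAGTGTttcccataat
A match is a description of letters and was not tested for function.

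Libraries held between 19833144 and 38008463 counts. The 3 vehicle libraries were the shallowest, at 22327652 counts or fewer against 24560759 or more in treated libraries, and had the largest share of mitochondrially encoded messenger RNA, 10.5% to 10.86% against 6.22% to 9.89%. Okbyeongpung-san 500 µg/mL replicate 2 stood apart from its partner: it was the deepest library and held 9.89% mitochondrial messenger RNA, against 6.73% in replicate 3. The part of these differences in the comparisons below was not tested beyond the fits without mitochondrially encoded genes and without single libraries. The epithelial keratins KRT8 and KRT18 and the A549 genes AKR1B10 and ALDH1A1 were high. KRT8 was at 2572 CPM or more, where CPM is the count scaled to a library total of 1000000. Lower in the same list were AKR1C1 (290.9 to 396.1 CPM), KRT19 (24.3 to 37.13 CPM) and CDH1 (26.53 to 34.35 CPM). EPCAM was at 3.894 to 6.335 CPM, and the alveolar genes NKX2-1 and SFTPC did not exceed 0.177 CPM. Among markers of other cells, the erythroid list (5 genes) summed to at most 0.33 CPM in any library, the hepatocyte list (5 genes) to 0.352 CPM and the endothelial list (4 genes) to 0.374 CPM. The immune list (6 genes) summed to 14.8 to 17.3 CPM in vehicle and 9.41 to 22.7 CPM in treated libraries, nearly all of it CD68 and CD14, while PTPRC did not exceed 0.038 CPM and CD3E and MS4A1 were at 0. The fibroblast list (5 genes) summed to 34.8 to 37.5 CPM in vehicle and 21.5 to 37.8 CPM in treated libraries, mostly COL1A1 and COL3A1, while COL1A2 and DCN did not exceed 0.0966 CPM. COL1A1 was lower with Soshiho-tang 500 µg/mL than with vehicle (18.1 against 30.3 CPM) and CD14 higher with Okbyeongpung-san 500 µg/mL (3.72 against 2.24 CPM), and their part in the results was not tested. In such bulk samples, fewer cells of a kind and less RNA per cell cannot be told apart.

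Scaled also for transcript length, as TPM, the members spanned a wide range of levels. FTL was the most abundant at 16540 to 24380 TPM and FTH1 followed at 5116 to 8283 TPM. BLVRB averaged 257 TPM over the 30 libraries, HMOX1 211.2 TPM and TFRC 145.7 TPM. BLVRA averaged 65.3 TPM, SLC48A1 38.3 TPM, HMOX2 30.5 TPM, SLC40A1 19.1 TPM and BACH1 10.03 TPM. The inducible haem oxygenase was thus above the constitutive one in every library, since HMOX1 lay between 152 and 305.1 TPM and HMOX2 between 27.2 and 35.4 TPM.

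**Figure D1:**
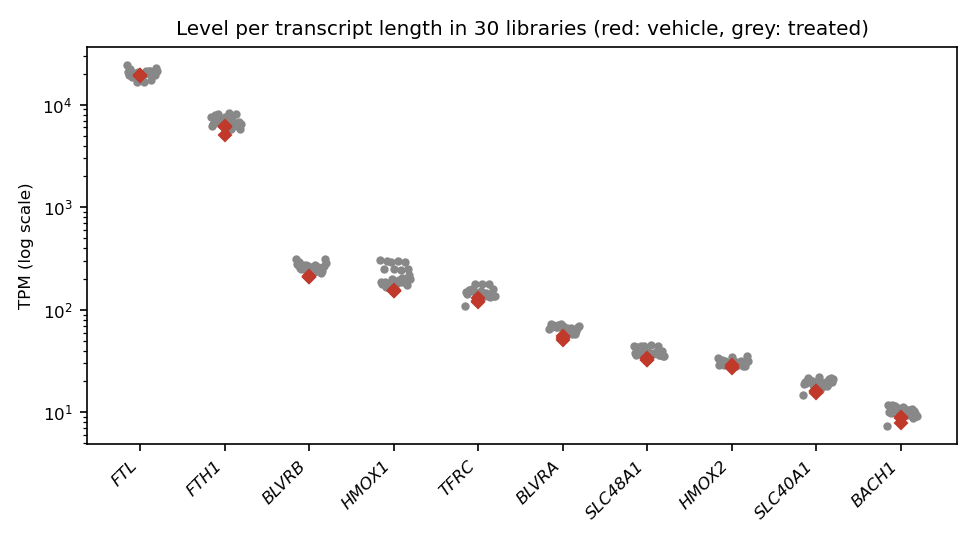
Level per transcript length (TPM, log axis) of the 10 genes, 1 point per library for all 30 libraries, with the 3 vehicle libraries in red and treated ones in grey. The ferritin chains lie at 5116 TPM or more in every library and BACH1 at or below 11.86 TPM.

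HMOX1 (ENSG00000100292, chr22:35380361-35394214) was the member with the widest response, and its level at 500 µg/mL lay above that at any lower dose. Vehicle libraries held 146.1, 145.2 and 143.2 CPM. With 500 µg/mL, Soshiho-tang libraries held 242.7, 249.7 and 249.5 CPM, Yijin-tang libraries 216.3, 214.5 and 214.9 CPM, Okbyeongpung-san libraries 290.6 and 249.9 CPM and the Soyo-san library 211.3 CPM. The 9 libraries at 500 µg/mL thus ran from 211.3 to 290.6 CPM, and the 21 libraries of vehicle and lower doses from 142 to 189.9 CPM, with no overlap. Against vehicle, HMOX1 rose 1.71-fold with Soshiho-tang, a log2 fold change of 0.77 ± 0.060 (SE; adjusted p = 6.46e-10, edgeR quasi-likelihood test with Benjamini-Hochberg adjustment, as for every adjusted p below). It rose by 0.57 ± 0.059 with Yijin-tang (adjusted p = 1.42e-06) and by 0.90 ± 0.065 with Okbyeongpung-san (adjusted p = 1.3e-08).

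At lower doses the HMOX1 differences from vehicle were small. Over all doses, 26 of 27 treated libraries lay above the highest vehicle library. Treated and vehicle libraries also differ in depth and mitochondrial share, and for the low-dose differences from vehicle these cannot be told apart. Soshiho-tang libraries held 179.2, 168.6 and 176.3 CPM at 100 µg/mL and 163.9, 167 and 153.3 CPM at 20 µg/mL. Yijin-tang libraries held 169.7, 180 and 189.9 CPM at 100 µg/mL and 149.9, 167.3 and 178.1 CPM at 20 µg/mL. HMOX1 rose at 100 µg/mL with Soshiho-tang (log2 0.27 ± 0.060, adjusted p = 0.00593) and with Yijin-tang (log2 0.31 ± 0.060, adjusted p = 0.00122). At 20 µg/mL the call for Yijin-tang (log2 0.19, adjusted p = 0.0436) was lost when any 1 vehicle library, or replicate 2 or 3 of Yijin-tang, was left out, and the 0.16 of Soshiho-tang was not called (adjusted p = 0.111).

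Okbyeongpung-san and Soyo-san had the lowest HMOX1 levels below 500 µg/mL. Okbyeongpung-san libraries held 160.8 and 151 CPM at 100 µg/mL and 152.2 and 151.2 CPM at 20 µg/mL, and neither dose passed the test (adjusted p = 0.344 and 0.586). Soyo-san held 149.5 CPM at 100 µg/mL and 142 CPM at 20 µg/mL, the second being the only treated library below the vehicle range. In the order of group means, each group from Okbyeongpung-san 20 µg/mL (151.7 ± 0.713 CPM, SD, n = 2) up to Yijin-tang 100 µg/mL (179.9 ± 10.1 CPM, n = 3) overlapped its neighbours. Above them stood Soyo-san 500 µg/mL, Yijin-tang 500 µg/mL (215.2 ± 0.933 CPM), Soshiho-tang 500 µg/mL (247.3 ± 4.00 CPM) and Okbyeongpung-san 500 µg/mL (270.2 ± 28.8 CPM, n = 2).

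Comparison of 500 with 20 µg/mL of the same extract uses no vehicle library. HMOX1 rose in all of these comparisons, by log2 0.62 ± 0.059 with Soshiho-tang (adjusted p = 3.18e-08), 0.38 ± 0.059 with Yijin-tang (adjusted p = 7.07e-04) and 0.83 ± 0.073 with Okbyeongpung-san (adjusted p = 2.93e-07). The rise of Okbyeongpung-san over 20 µg/mL lost its call when only its 4 libraries were fitted (log2 0.84, adjusted p = 0.546). Between extracts at 500 µg/mL, HMOX1 was higher with Soshiho-tang than with Yijin-tang (log2 0.20 ± 0.059, adjusted p = 0.024) and lower with Yijin-tang than with Okbyeongpung-san (log2 -0.33 ± 0.065, adjusted p = 0.00745). Soshiho-tang and Okbyeongpung-san were not told apart (log2 -0.13, interval of 2 SE on either side -0.26 to 0.00, adjusted p = 0.182).

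The HMOX1 values of Okbyeongpung-san depend on its replicate 2 in size but not in direction. Without that library, which leaves 1 library of batch D that is assumed to vary like the other groups, HMOX1 was still higher than vehicle by log2 0.79 (adjusted p = 7.07e-07) and higher than at 20 µg/mL by 0.72 (adjusted p = 1.41e-05). With replicate 3 left out instead, so that Okbyeongpung-san and vehicle were both of batch E, the rise over vehicle was log2 1.00 (adjusted p = 1.07e-08). The difference from Yijin-tang at 500 µg/mL was -0.22 without replicate 2 and no longer passed the test (adjusted p = 0.498). The call for Soshiho-tang over Yijin-tang was lost without Soshiho-tang replicate 2 or 3 or any 1 Yijin-tang library, with the value staying between 0.18 and 0.22 over all settings.

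**Figure D2:**
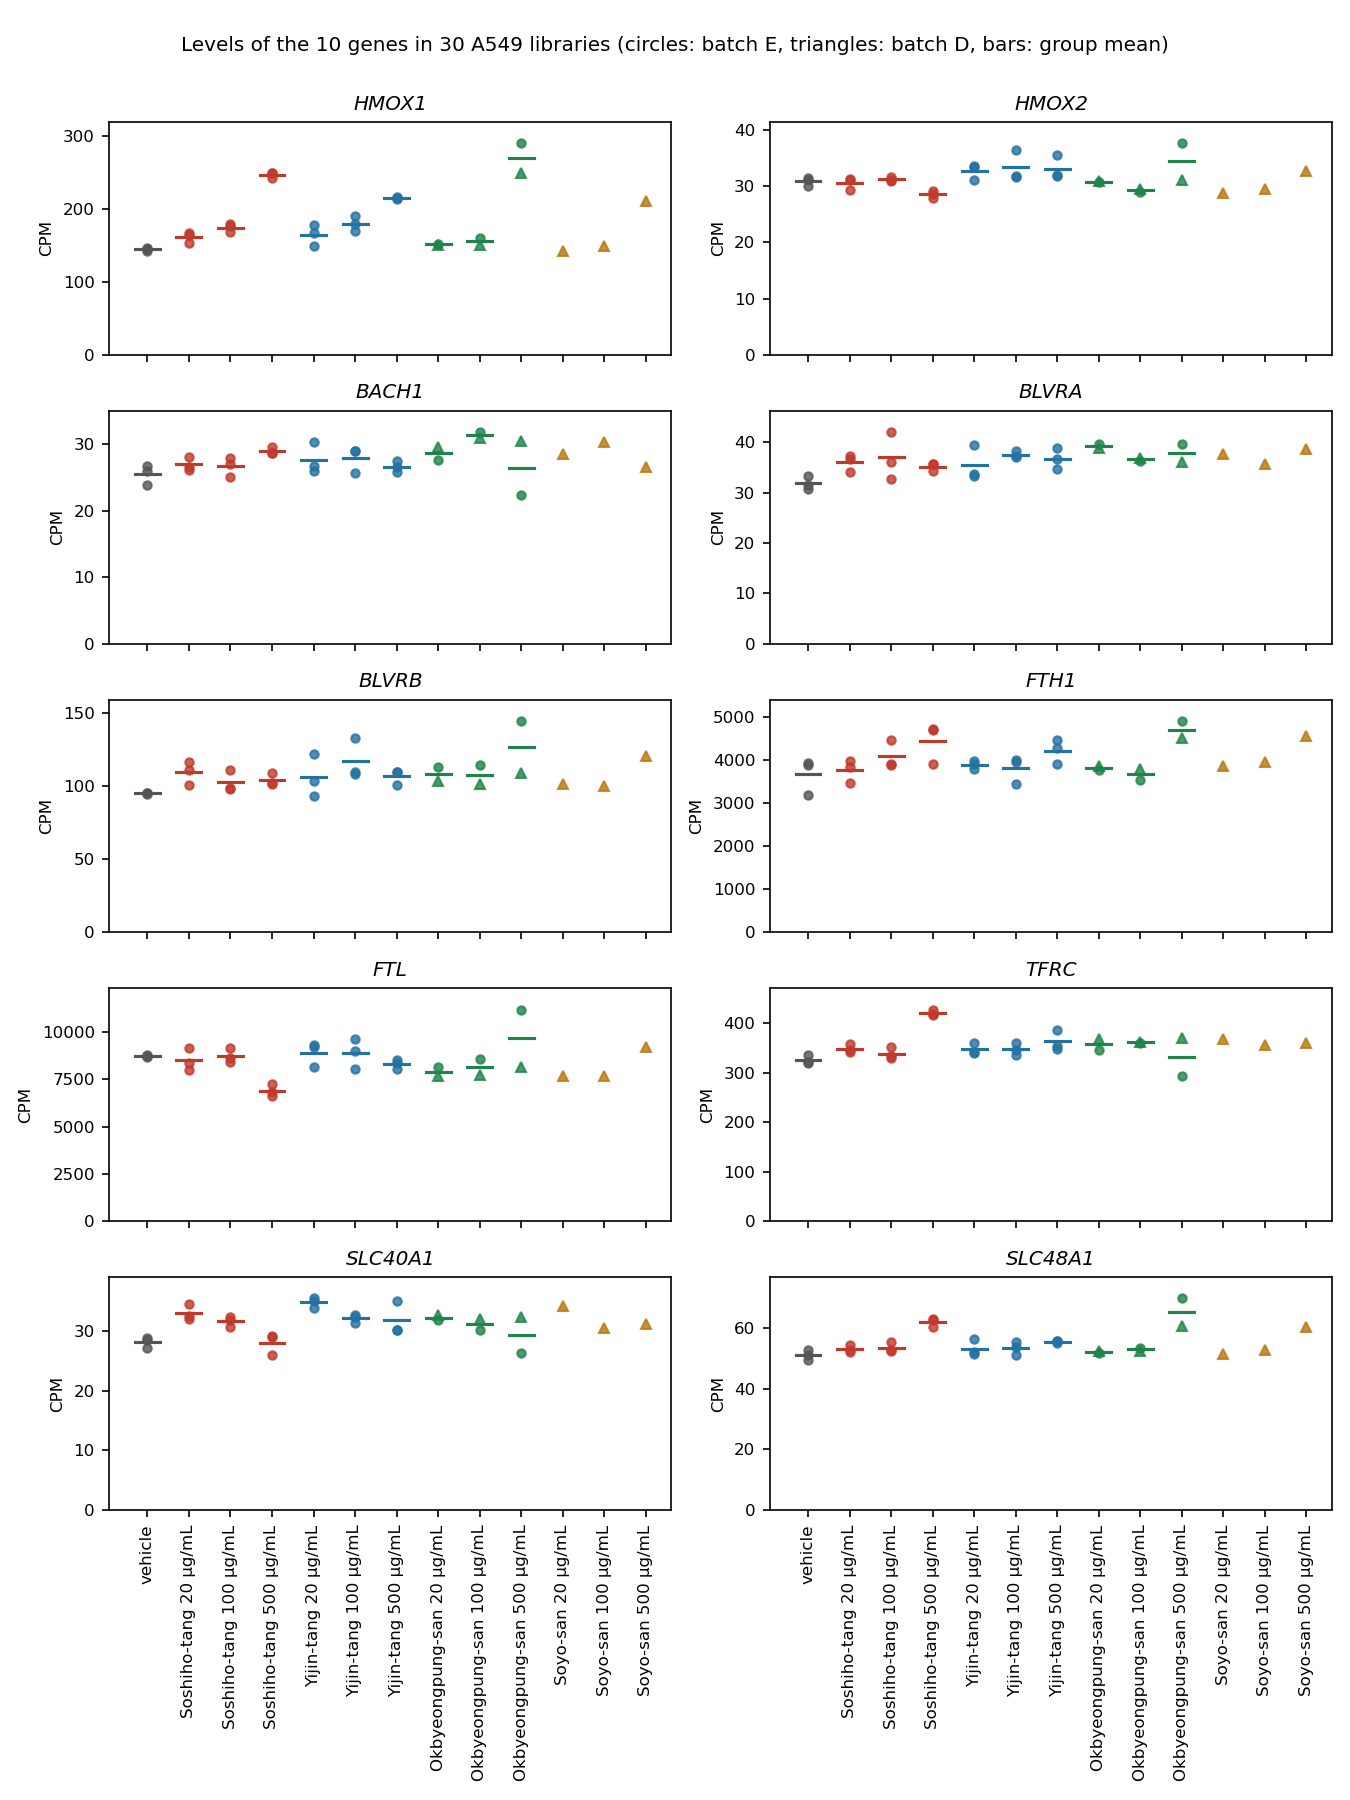
Level (CPM, axes from 0) of each gene in each of 30 libraries, grouped by extract and dose in µg/mL, with circles for batch E, triangles for batch D and bars for means of groups with more than 1 library. HMOX1 at 500 µg/mL (211.3 CPM or more) lies above all other libraries, and FTL is lowest and TFRC highest with Soshiho-tang at 500 µg/mL.

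HMOX2 (ENSG00000103415, chr16:4474690-4510347), the constitutive haem oxygenase, passed the edgeR test of the reported fit against vehicle in 0 of 9 comparisons. There was an unadjusted p under 0.05 in 1 and 0 calls by DESeq2. With a length and GC offset HMOX2 was called lower with Soshiho-tang at 500 µg/mL (log2 -0.15, adjusted p = 0.0209). With Okbyeongpung-san at 500 µg/mL the difference from vehicle was 0.16, against 0.01 without replicate 2 and 0.28 without replicate 3. Vehicle libraries held 31.4, 31.2 and 30.1 CPM, and Soshiho-tang 500 µg/mL libraries 29.1, 27.8 and 28.7 CPM. Yijin-tang 500 µg/mL libraries held 35.6, 32.1 and 31.7 CPM and Okbyeongpung-san 500 µg/mL libraries 37.7 and 31.2 CPM. The low Soshiho-tang libraries lay below all libraries of the other 3 groups. HMOX2 was lower with Soshiho-tang than with Yijin-tang (log2 -0.21 ± 0.065, adjusted p = 0.030) and than with Okbyeongpung-san (log2 -0.27 ± 0.072, adjusted p = 0.00938). Without Okbyeongpung-san replicate 2 the second difference was -0.12 (adjusted p = 0.435), and the first lost its call without any 1 Soshiho-tang library or without Yijin-tang replicate 1 or 2. HMOX2 lies opposite NMRAL1, which held 21590 counts over all libraries beside 26925 for HMOX2, and the strand setting of the counting is not given in the sources used here, so these low values are uncertain.

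BACH1 (ENSG00000156273, chr21:29194071-29630751), the haem-sensing repressor of HMOX1, was called in 0 of the 18 comparisons in the reported edgeR fit, with an unadjusted p under 0.05 in 2 and 1 call by DESeq2. Its log2 fold change against vehicle ran from 0.04 to 0.30 over the 9 extract doses, the highest with Okbyeongpung-san at 100 µg/mL (31.9 and 30.9 CPM against 26.0, 23.9 and 26.7 CPM in vehicle, adjusted p = 0.0526). The DESeq2 call was at this dose (log2 0.29, adjusted p = 0.046), and the value also passed in 4 other fits. At 500 µg/mL the difference from vehicle was 0.18 with Soshiho-tang (interval of 2 SE 0.01 to 0.35), 0.06 with Yijin-tang (-0.11 to 0.23) and 0.04 with Okbyeongpung-san (-0.15 to 0.23), whose libraries held 22.3 and 30.5 CPM. These intervals leave room for changes of up to 0.35 on the log2 scale. The Soshiho-tang difference passed with a length and GC offset (log2 0.15, adjusted p = 0.0254) and with only these groups (log2 0.18, adjusted p = 0.0191). That offset also called BACH1 higher with Yijin-tang at 100 µg/mL (log2 0.16, adjusted p = 0.0347).

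The biliverdin reductases were somewhat higher in treated than in vehicle libraries. BLVRA (ENSG00000106605, chr7:43758680-43807342), which reduces the main biliverdin isomer, held 31.6, 30.6 and 33.2 CPM in vehicle, and 26 of 27 treated libraries lay above the highest of these. Its rise passed the test with Yijin-tang at 100 µg/mL (log2 0.24 ± 0.076, adjusted p = 0.0367) and with Okbyeongpung-san at 500 µg/mL (log2 0.25 ± 0.084, adjusted p = 0.0443) and 20 µg/mL (log2 0.30 ± 0.085, adjusted p = 0.0251). None of these calls held without vehicle replicate 1 or without vehicle replicate 2, and BLVRA did not pass the test between 500 and 20 µg/mL of any extract (log2 -0.05 to 0.05). The differences thus set vehicle against treated libraries, the same split in which depth and mitochondrial share differ, and these cannot be told apart here.

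BLVRB (ENSG00000090013, chr19:40447765-40465840), a flavin reductase that also reduces other biliverdin isomers, held 94.9, 95.4 and 94.3 CPM in vehicle, and 26 of 27 treated libraries were higher. It rose with Yijin-tang at 100 µg/mL (108, 109.4 and 132.4 CPM, log2 0.30 ± 0.098, adjusted p = 0.042) and with Okbyeongpung-san at 500 µg/mL (144.4 and 108.8 CPM, log2 0.42 ± 0.108, adjusted p = 0.013). One library was high in each group. Without Yijin-tang replicate 3 the first was 0.19 (adjusted p = 0.279), it also lost its call without any 1 vehicle library, and without Okbyeongpung-san replicate 2 the second was 0.20 (adjusted p = 0.343).

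The ferritin chains did not move together. FTH1 (ENSG00000167996, chr11:61959718-61967660), the heavy chain, held 3195, 3873 and 3922 CPM in vehicle, 3905, 4699 and 4724 CPM with Soshiho-tang 500 µg/mL and 4908 and 4497 CPM with Okbyeongpung-san 500 µg/mL. Yijin-tang 500 µg/mL libraries held 4470, 4268 and 3898 CPM and the Soyo-san 500 µg/mL library 4546 CPM. FTH1 rose with Soshiho-tang (log2 0.28 ± 0.083, adjusted p = 0.012), where 1 library overlapped vehicle, and with Okbyeongpung-san (log2 0.36 ± 0.092, adjusted p = 0.0122). For Yijin-tang the 0.20 ± 0.083 did not pass (adjusted p = 0.103), but it did without a filter on low counts (0.23, adjusted p = 0.00272) and with only these groups (0.20, adjusted p = 0.0454). FTH1 also rose from 20 to 500 µg/mL of Soshiho-tang (log2 0.24 ± 0.083, adjusted p = 0.0399).

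These FTH1 calls are among the less stable of the set. The Soshiho-tang call against vehicle was lost without Soshiho-tang replicate 2 or 3 or vehicle replicate 1, with values between 0.19 and 0.37 over all settings. The call against 20 µg/mL was lost without 500 µg/mL replicate 2 or 3 or 20 µg/mL replicate 2 or 3, with values from 0.20 to 0.34. The Okbyeongpung-san call was lost without its replicate 2 (log2 0.30, adjusted p = 0.116) or vehicle replicate 1 (log2 0.27, adjusted p = 0.0699). FTH1 lies opposite BEST1, which held 25660 counts beside 3441791 for FTH1, and its 25 annotated pseudogenes held at most 0.386% of its counts.

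FTL (ENSG00000087086, chr19:48965301-48966878), the light chain, fell with Soshiho-tang at 500 µg/mL. Vehicle libraries held 8683, 8733 and 8796 CPM and Soshiho-tang 500 µg/mL libraries 6612, 6812 and 7231 CPM, the lowest 3 of all 30 libraries. The log2 fold change was -0.34 ± 0.084 (adjusted p = 0.00272), and the call held in each of the 15 settings run, with values from -0.38 to -0.31. At lower doses of Soshiho-tang FTL held 9156, 8402 and 8607 CPM (100 µg/mL) and 7974, 9176 and 8342 CPM (20 µg/mL), which overlap vehicle. From 20 to 500 µg/mL the fall was -0.30 ± 0.084 (adjusted p = 0.0112). That call was lost without 500 µg/mL replicate 1 (-0.27, adjusted p = 0.0619) or 20 µg/mL replicate 2 (-0.23, adjusted p = 0.0967).

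In the other extracts FTL at 500 µg/mL stayed nearer to vehicle. Yijin-tang libraries held 8338, 8529 and 8052 CPM, all below vehicle, a log2 difference of -0.07 from vehicle (interval of 2 SE -0.24 to 0.10). Okbyeongpung-san libraries held 11190 and 8156 CPM, the first being the highest of all 30, and the Soyo-san library 9205 CPM. The difference of Okbyeongpung-san from vehicle was 0.15 (adjusted p = 0.304), and it was -0.10 without replicate 2 (adjusted p = 0.588) and 0.35 without replicate 3 (adjusted p = 0.00642), so its sign rests on 1 library. At 20 µg/mL Okbyeongpung-san libraries held 8134 and 7686 CPM, both below vehicle, a difference that passed the test when these groups were fitted alone (log2 -0.14, adjusted p = 0.00231). FTL was lower with Soshiho-tang than with Yijin-tang (log2 -0.27 ± 0.084, adjusted p = 0.034) and than with Okbyeongpung-san (log2 -0.49 ± 0.093, adjusted p = 6.02e-04). Without Okbyeongpung-san replicate 2 the latter was -0.24 (adjusted p = 0.125), and the former lost its call without Soshiho-tang replicate 1 or 2 or any 1 Yijin-tang library, with values from -0.31 to -0.24.

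The ratio of FTL to FTH1 counts was lowest with Soshiho-tang 500 µg/mL. It was 2.41 ± 0.271 (SD, n = 3) in vehicle and 1.56 ± 0.124 (n = 3) with Soshiho-tang 500 µg/mL, against 2.28 ± 0.332 and 2.14 ± 0.0785 at its lower doses. Yijin-tang and Okbyeongpung-san at 500 µg/mL had ratios of 1.98 ± 0.102 (n = 3) and 2.05 ± 0.329 (n = 2). The ratio was formed from both genes after their changes had been seen and got no test of its own. FTL pseudogenes, 16 in the annotation, held at most 0.0805% of FTL counts.

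TFRC (ENSG00000072274, chr3:196027183-196082189), which imports transferrin-bound iron, rose with Soshiho-tang at 500 µg/mL. Vehicle libraries held 336.7, 320.1 and 322.8 CPM and Soshiho-tang 500 µg/mL libraries 416.6, 419.9 and 428 CPM, the highest 3 of all 30 libraries. The log2 fold change was 0.37 ± 0.061 (adjusted p = 4.96e-05), and from 20 to 500 µg/mL it was 0.28 ± 0.060 (adjusted p = 0.00175). Both calls held in each of the 14 settings run. At 100 µg/mL Soshiho-tang libraries held 334.6, 352.2 and 330.1 CPM and at 20 µg/mL 358.4, 341.5 and 345.3 CPM, with no call against vehicle.

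With Yijin-tang and Okbyeongpung-san the TFRC differences from vehicle were smaller and did not pass the test in the fit reported here. Yijin-tang 500 µg/mL libraries held 348.7, 355 and 386.8 CPM (log2 0.15, interval of 2 SE 0.03 to 0.28, adjusted p = 0.085). This value passed in 4 other fits, at log2 0.15 to 0.19: with batch as a factor (adjusted p = 0.0477), with a length and GC offset (0.00314), without a filter on low counts (0.039) and with only these groups (0.0213). In the length and GC fit TFRC was also higher than vehicle with Yijin-tang at 100 and 20 µg/mL (log2 0.13 and 0.11) and with Okbyeongpung-san at 500 and 100 µg/mL (0.12 and 0.13), and with only the groups compared at 100 and 20 µg/mL of Okbyeongpung-san (0.15 and 0.13). Okbyeongpung-san 500 µg/mL libraries held 293.6 and 370.2 CPM, the first being the lowest of all 30, and the Soyo-san library held 359.6 CPM. The difference of Okbyeongpung-san from vehicle was 0.02 (adjusted p = 0.86), against 0.18 without replicate 2 (adjusted p = 0.0795) and -0.16 without replicate 3 (adjusted p = 0.0724). TFRC was higher with Soshiho-tang than with Yijin-tang (log2 0.21 ± 0.060, adjusted p = 0.0197) and than with Okbyeongpung-san (log2 0.34 ± 0.068, adjusted p = 8.89e-04). The second was 0.19 without Okbyeongpung-san replicate 2 (adjusted p = 0.0819), and the first was lost without Soshiho-tang replicate 2 or 3 or Yijin-tang replicate 1 or 2, with values from 0.18 to 0.27.

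**Figure D3:**
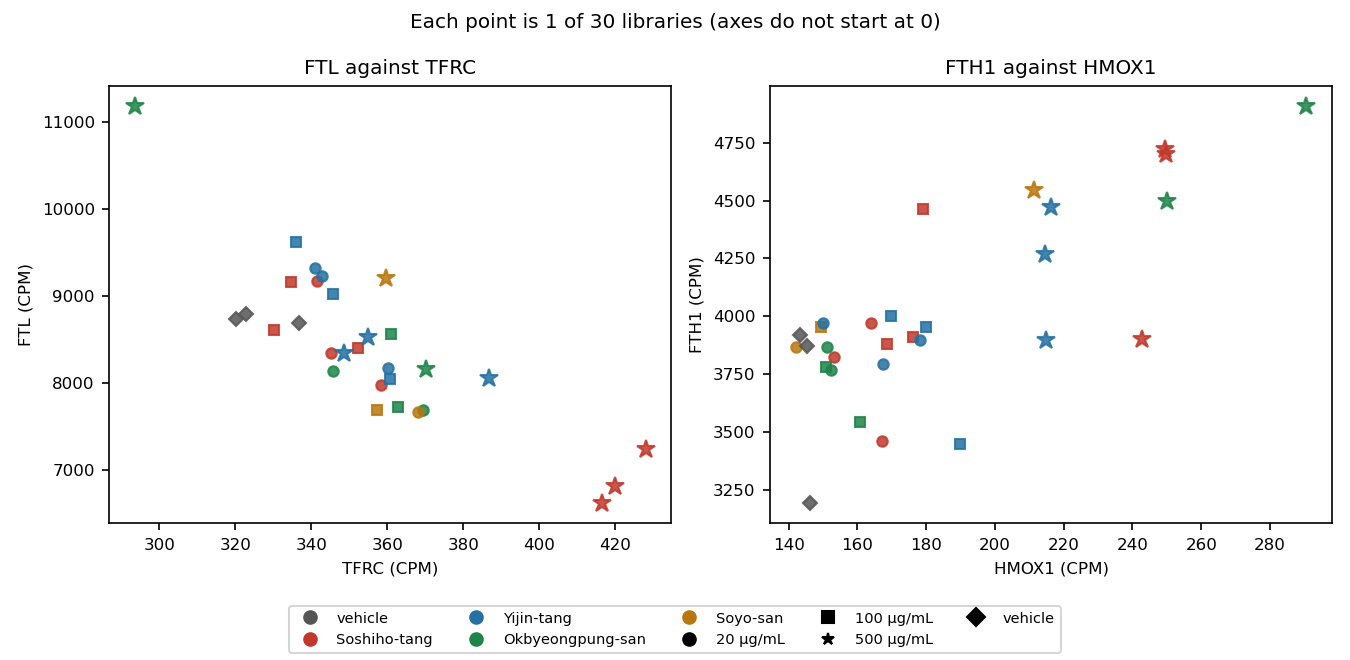
FTL against TFRC (left) and FTH1 against HMOX1 (right) in CPM, 1 point per library for 30 libraries, coloured by extract and shaped by dose, on axes that do not start at 0. The 3 Soshiho-tang 500 µg/mL libraries have the lowest FTL (6612 to 7231 CPM) and highest TFRC (416.6 to 428 CPM), and Okbyeongpung-san 500 µg/mL replicate 2 lies at the opposite corner (11190 and 293.6 CPM).

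SLC48A1 (ENSG00000211584, chr12:47753916-47782753), the endolysosomal haem transporter, rose against vehicle at the extract doses at which FTH1 rose. Vehicle libraries held 49.5, 51.1 and 52.8 CPM, Soshiho-tang 500 µg/mL libraries 60.5, 63.0 and 62.7 CPM and Okbyeongpung-san 500 µg/mL libraries 70.0 and 60.9 CPM. Yijin-tang 500 µg/mL libraries held 55.9, 55.0 and 56.0 CPM and the Soyo-san 500 µg/mL library 60.4 CPM. All 9 libraries at 500 µg/mL lay above vehicle, though those of Yijin-tang overlapped lower doses. The rise was log2 0.28 ± 0.052 with Soshiho-tang (adjusted p = 1.93e-04) and 0.36 ± 0.057 with Okbyeongpung-san (adjusted p = 3.08e-04), while 0.12 ± 0.052 with Yijin-tang was not called (adjusted p = 0.115).

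From 20 to 500 µg/mL SLC48A1 rose with Soshiho-tang (log2 0.22 ± 0.051, adjusted p = 0.00228) and with Okbyeongpung-san (log2 0.33 ± 0.062, adjusted p = 0.00619). Both Soshiho-tang calls held in each of the 14 settings run. Without 500 µg/mL replicate 2 the Okbyeongpung-san rise over vehicle was 0.25 and that over 20 µg/mL 0.23. The call over 20 µg/mL was lost in 5 of 12 settings. These were without that library, without either 20 µg/mL library, with a length and GC offset and with only these groups (adjusted p = 0.76). With only the groups compared, the Okbyeongpung-san rise over vehicle also lost its call (log2 0.34, adjusted p = 0.0719). At 500 µg/mL SLC48A1 was higher with Soshiho-tang than with Yijin-tang (log2 0.16 ± 0.051, adjusted p = 0.0408) and lower with Yijin-tang than with Okbyeongpung-san (log2 -0.24 ± 0.056, adjusted p = 0.0272). Neither difference held without any 1 Yijin-tang library, and without Okbyeongpung-san replicate 2 the second was -0.13 (adjusted p = 0.812). SLC48A1 lies opposite RAPGEF3, which held 1060 counts beside 47333 for SLC48A1. It also shares 32 bases with HDAC7 on the opposite strand, which held 71760 counts.

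SLC40A1 (ENSG00000138449, chr2:189560579-189583758), the iron exporter, had its highest mean at 20 µg/mL of each tested extract. Yet 25 of 27 treated libraries lay above the highest vehicle library, and 2 lay below the lowest. Treated and vehicle libraries also differ in depth and mitochondrial share, and these cannot be told apart here. Vehicle libraries held 28.5, 28.8 and 27.1 CPM, Yijin-tang 20 µg/mL libraries 35.1, 33.9 and 35.5 CPM and Soshiho-tang 20 µg/mL libraries 32.1, 32.6 and 34.5 CPM. It rose over vehicle at 20 µg/mL of Yijin-tang (log2 0.31 ± 0.070, adjusted p = 0.00659), a call that held in each of the 14 settings run. With Soshiho-tang at 20 µg/mL the rise of 0.23 ± 0.070 (adjusted p = 0.0411) lost its call when any 1 library of either group was left out. At 500 µg/mL Soshiho-tang libraries held 29.0, 26.1 and 29.2 CPM, level with vehicle, and SLC40A1 fell by 0.24 on the log2 scale from 20 to 500 µg/mL (adjusted p = 0.0152). Without replicate 3 of the lower dose the fall was -0.20 (adjusted p = 0.0843) and without replicate 2 of the higher dose -0.18 (adjusted p = 0.109). Over this step the change was not called with Yijin-tang (-0.13, adjusted p = 0.707) or Okbyeongpung-san (-0.14, adjusted p = 0.367). With Yijin-tang at 100 µg/mL the rise of 0.19 over vehicle was not called (adjusted p = 0.0642). It passed with batch or replicate as a factor, with a length and GC offset and with only these groups (adjusted p = 0.0142 to 0.0415).

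Counted over the 10 genes, the share called can be read against the share of all 17459 genes tested. With Soshiho-tang at 500 µg/mL against vehicle, 4 rose and 1 fell, where 33.1% of all genes were called (17.2% higher and 16% lower), and the median log2 fold change of the 10 was 0.16 against 0.01 over all genes. Yijin-tang at 500 µg/mL had 1 call (15.7% of all genes) and Okbyeongpung-san 5, all higher (14.9% called, 7.19% higher). At 100 µg/mL the calls were 1 with Soshiho-tang (10.8%), 3 with Yijin-tang (14.7%) and 0 with Okbyeongpung-san (9.49%). At 20 µg/mL they were 1 (8.02%), 2 (10.2%) and 1 (10.2%). Okbyeongpung-san at 100 µg/mL had 3 of the 10 genes at an unadjusted p under 0.05 and 1 call by DESeq2. The 3 calls of Yijin-tang at 100 µg/mL became 1 to 2 when any 1 library of either group was left out. Counts over 10 genes are too small to rank the extracts at the lower doses.

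Between doses the background was lower. From 20 to 500 µg/mL of Soshiho-tang, 4 of the 10 rose and 2 fell, where 20.6% of all genes were called (10.3% higher and 10.2% lower). Yijin-tang had 1 call, HMOX1, where 0.705% of genes were called, and Okbyeongpung-san 2, HMOX1 and SLC48A1, where 1.59% were called. Between extracts at 500 µg/mL, Soshiho-tang differed from Yijin-tang in 5 genes (12.6% of all genes) and from Okbyeongpung-san in 3 (18.7%), and Yijin-tang from Okbyeongpung-san in 2 (2.31%). Counts and backgrounds that involve Okbyeongpung-san at 500 µg/mL rest on 2 libraries that differ from each other. Against vehicle, 20 µg/mL and both other extracts, more genes were called without replicate 3 and fewer without replicate 2. This held for the 10 genes and for all genes. Each such fit leaves 1 library in the group, with no spread of its own. All comparisons with vehicle share its 3 libraries. Leaving mitochondrially encoded genes out of the counts ended 1 of the 41 calls of the set, that of BLVRA with Okbyeongpung-san at 500 µg/mL (log2 0.24, adjusted p = 0.0533).

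**Figure D4:**
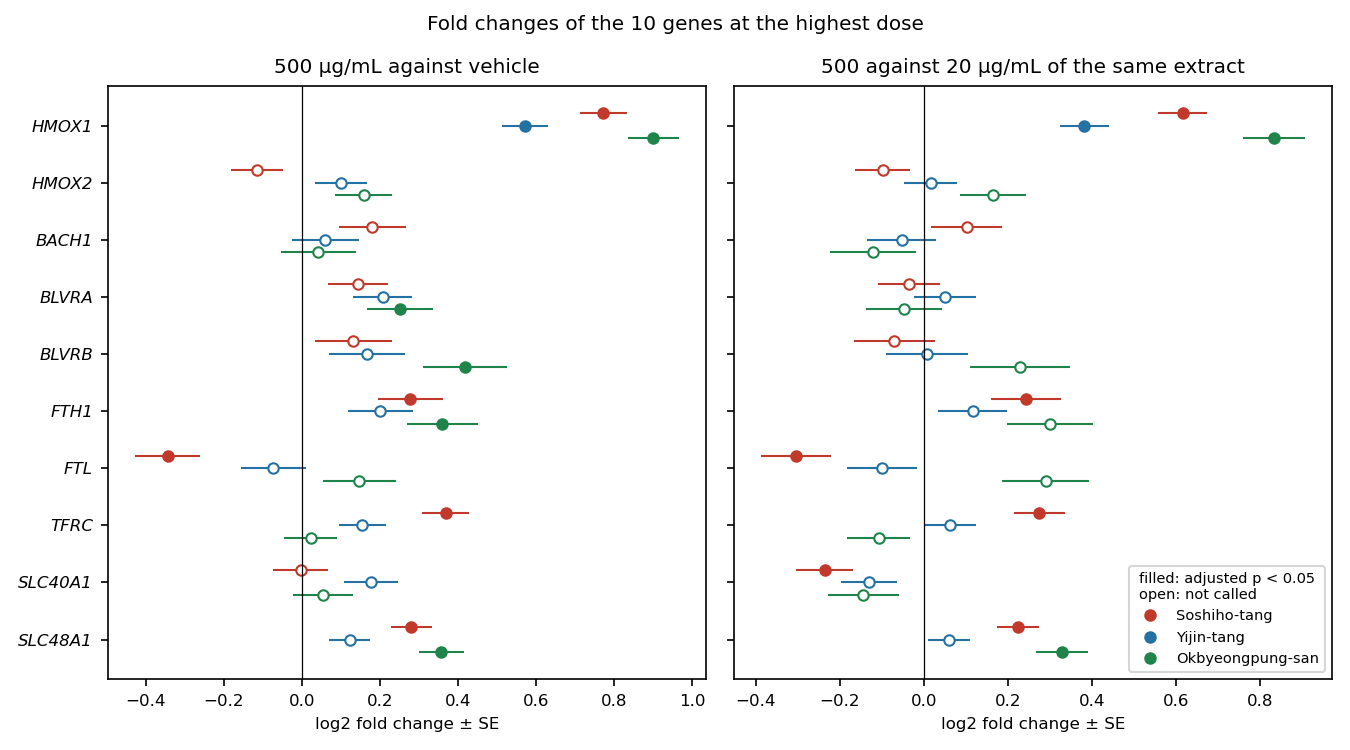
Log2 fold change with its SE for the 10 genes at 500 µg/mL against vehicle (left) and against 20 µg/mL of the same extract (right), coloured by extract, filled where the adjusted p is below 0.05. HMOX1 is called for all 3 extracts in both panels, while FTL falls and TFRC rises in Soshiho-tang only among the filled points.

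The differences between dose effects were tested as such, in 3 contrasts. The change of FTL from 20 to 500 µg/mL differed between Soshiho-tang and Okbyeongpung-san by log2 -0.59 ± 0.133 (adjusted p = 0.00658) and that of TFRC by 0.38 ± 0.096 (adjusted p = 0.0148), where 7.01% of genes were called. Without Okbyeongpung-san 500 µg/mL replicate 2 these were -0.34 (adjusted p = 0.135) and 0.23 (adjusted p = 0.162), and both also lost their call without replicate 3 of its 20 µg/mL group. The HMOX1 dose effect was smaller with Yijin-tang than with Okbyeongpung-san by log2 -0.45 ± 0.093 (adjusted p = 0.0415), where 0.16% of genes (28) were called. Without Okbyeongpung-san 500 µg/mL replicate 2 this difference was -0.34. The call was lost in 9 of 18 settings, among them without any 1 Yijin-tang 500 µg/mL library and with only these groups (adjusted p = 0.677). Between Soshiho-tang and Yijin-tang 0 of the 10 dose effects passed the edgeR test (4.04% of genes called), with an unadjusted p under 0.05 for 3 and 0 calls by DESeq2. The HMOX1 difference there was 0.23 (interval of 2 SE 0.07 to 0.40, adjusted p = 0.135).

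Across the means of the 10 groups with replicates, HMOX1 had a Pearson r of 0.96 with FTH1 and 0.96 with SLC48A1, FTL had -0.92 with TFRC, and HMOX2 had 0.81 with FTL. These are descriptions over 10 points that share vehicle and batches, and the groups at 500 µg/mL stand apart, so they carry no test. Among 11191 genes, a number that counts the members, the other genes most like HMOX1 by this measure were STAT6 (0.989), HTRA1 (0.981), MGAT4B (0.973) and NEU1 (0.966). FTH1 was closest to GPR137B (0.971) and also to NEU1 and MGAT4B, FTL to RPS6KB2 (0.975) and TFRC to SEPSECS (0.983).

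Other genes of haem and iron handling were counted from lists, to be read against 33.1% of all genes called with Soshiho-tang at 500 µg/mL against vehicle (17.2% higher, 16% lower), 15.7% with Yijin-tang and 20.6% from 20 to 500 µg/mL of Soshiho-tang. Of 11 tested genes of haem synthesis, 4 rose and 0 fell with Soshiho-tang at 500 µg/mL against vehicle, with a median log2 fold change of 0.10. Among them were UROD and PPOX, enzymes of the pathway (both 0.37), and TMEM14C, which brings the haem precursor into the mitochondrial matrix (0.43 ± 0.082, adjusted p = 2.21e-04). Yijin-tang at 500 µg/mL also had 4 higher, and from 20 to 500 µg/mL of Soshiho-tang 2 were higher. Of 9 haem transport genes 3 rose and 2 fell with Soshiho-tang, with HEBP1, a haem-binding protein, at 0.50 ± 0.067 (adjusted p = 3.47e-06) and the haem exporter FLVCR1 at -0.34 ± 0.076 (adjusted p = 0.00139).

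Of 17 genes of mitochondrial iron and iron-sulfur clusters, 5 rose and 1 fell with Soshiho-tang at 500 µg/mL (33.1% of all genes called) and 7 rose with Yijin-tang (15.7%), with medians of 0.16 and 0.17. NFS1, the cysteine desulfurase that supplies the sulfur, rose with Yijin-tang (0.33 ± 0.069, adjusted p = 0.00208). CISD2, an iron-sulfur protein, rose with both (0.28 and 0.31), as did BOLA3, a cluster assembly factor (0.30 and 0.32), while GLRX5, the mitochondrial glutaredoxin that passes clusters on, fell with Soshiho-tang (-0.25 ± 0.058, adjusted p = 0.00165). From 20 to 500 µg/mL of Soshiho-tang 1 rose and 1 fell: SLC25A37, known as mitoferrin, which brings iron into the mitochondrion, by 0.39 ± 0.047 (adjusted p = 1.39e-06), and GLRX5 by -0.33.

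Among 11 tested genes of iron uptake and reduction, 5 rose and 1 fell with Soshiho-tang at 500 µg/mL, with a median of 0.29. SLC39A14, a carrier of iron and zinc that is not bound to transferrin, rose from 157.6 to 232.1 CPM (log2 0.56 ± 0.051, adjusted p = 1.18e-08), and STEAP1 (0.57) and the divalent metal carrier SLC11A2 (0.31) rose as well. From 20 to 500 µg/mL, SLC39A14 rose by 0.52 and SCARA5, a ferritin receptor, fell by 0.53 on the log2 scale. Over that dose step 3 genes of this list rose and 2 fell, and against vehicle Yijin-tang had 3 higher. Of 5 genes of iron regulatory proteins and their turnover, 1 rose with Soshiho-tang: FBXL5, the iron-sensing ubiquitin ligase subunit that has iron regulatory protein IREB2 degraded (0.46 ± 0.056, adjusted p = 1e-06). It also rose by 0.33 from 20 to 500 µg/mL.

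In ferritin handling, 1 of 8 tested genes rose and 2 fell with Soshiho-tang at 500 µg/mL. The lower ones were NCOA4, the receptor for ferritin autophagy (-0.18 ± 0.053, adjusted p = 0.0126), and PCBP1, an iron chaperone that loads ferritin (-0.21 ± 0.048, adjusted p = 0.00158). Both also fell from 20 to 500 µg/mL, each by 0.23 on the log2 scale. Among 6 genes of iron export and systemic control, 2 rose and 3 fell. CP, the ferroxidase ceruloplasmin, was at -0.77 and BMP6, which signals iron stores in the liver, at -0.63, whereas EPAS1, a hypoxia-inducible factor subunit, was at 0.44. BMP6 was also lower with Yijin-tang (-0.48 ± 0.087, adjusted p = 7.25e-04).

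Partners and other targets of NRF2 did not all move with HMOX1. Of 15 other NRF2 targets, 4 rose and 2 fell with Soshiho-tang at 500 µg/mL, where 33.1% of all genes were called, and 6 rose with Yijin-tang, where 15.7% were, with medians of 0.09 and 0.14. The exporter ABCC3 rose with Soshiho-tang (0.71 ± 0.054) and Yijin-tang (0.17 ± 0.054, adjusted p = 0.0318), and the cystine carrier SLC7A11 with Soshiho-tang (0.55 ± 0.116, adjusted p = 6.77e-04). Of 8 partners of NRF2 and BACH1, 3 rose and 3 fell with Soshiho-tang, MAFG being at 0.30 ± 0.064, and MAFK fell with Yijin-tang by 0.42 on the log2 scale. In the ferroptosis list, 4 of 9 genes rose with Soshiho-tang, led by CHAC1, which degrades glutathione, at 1.59 ± 0.119 (20.6 against 6.84 CPM, adjusted p = 4.08e-10). From 20 to 500 µg/mL of Okbyeongpung-san, 0 of the 99 tested genes of these lists passed the edgeR test (1.59% of all genes did), and 21 had an unadjusted p under 0.05.

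RefSeq promoters, from 250 bases before a start, were matched for 8 of the 10 members, in 11 windows. The NRF2 and BACH1 motif TGACNNNGC, searched on both strands, was found in 0 of these 11 and in 10.9% of all 35116 promoters of that length. HMOX1 and FTH1 were not matched, so their promoters were not searched. With so few windows, 0 matches cannot be told apart from that share, and sequence outside the windows was not searched.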

How the data were processed

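The authors deposited expected counts, estimated by RSEM 1.3.3 after mapping. RSEM, the aligner STAR 2.7.3a, the trimmer Trim Galore 0.6.5 and the quality check FastQC 0.11.9 stand in the submitters' processing notes, as do the builds hg38 and GRCh38; annotation release and strand setting are not given in the sources used here. Between 9.09% and 11.6% of values per library were not whole, and all were rounded. A further 30 columns of the table were empty and left out. In 24 pairs of libraries within groups, none agreed within sampling noise.

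The 27 libraries of the 10 groups with replicates entered 1 fit of edgeR 4.0.16 (R 4.3.3; TMM scaling, filterByExpr, quasi-likelihood F test), with Benjamini-Hochberg adjustment over 17459 genes and calls at an adjusted p below 0.05. The SE was taken as the size of the log2 fold change over the square root of F. The biological coefficient of variation was 6.89%. The procedure was tested on simulated data. CPM are counts on TMM-scaled totals of 1000000, and TPM uses lengths of GENCODE 29 transcripts.

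The 10 genes were named in every comparison. Of each other list, up to 3 called genes per comparison with the largest change were named, provided that the mean log2 CPM reached 2 and the groups did not overlap; ABCC3 with Yijin-tang was named after its values were seen. The members and lists were chosen with earlier results of these data known. The alternatives tried were DESeq2 size factors, the DESeq2 1.42.0 Wald test, no filter on low counts, only the groups compared, replicate or batch as a factor, no mitochondrially encoded genes, ferritin pseudogenes summed with their genes, and each library left out in turn. A length and GC offset was added after the data were seen. Other treatments in the series text were not analysed here.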

Additional observations from a re-analysis of the deposited data

Results flagged for a closer look

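Differences between extracts in the effect of dose were found for 3 genes by a test of the difference itself (edgeR quasi-likelihood test). The log2 change of FTL from 20 to 500 µg/mL was -0.30 with Soshiho-tang and 0.29 with Okbyeongpung-san (not called, adjusted p = 0.145), a difference of -0.59. That of TFRC was 0.28 with Soshiho-tang and -0.11 with Okbyeongpung-san (not called, adjusted p = 0.451), a difference of 0.38. That of HMOX1 was 0.38 with Yijin-tang and 0.83 with Okbyeongpung-san, a difference of -0.45. All 3 lost their call without Okbyeongpung-san 500 µg/mL replicate 2, with values of -0.34, 0.23 and -0.34. Over all settings run, the FTL call was lost in 3 of 19, the TFRC call in 3 of 18 and the HMOX1 call in 9 of 18. Without Okbyeongpung-san 500 µg/mL replicate 2 the Okbyeongpung-san changes of FTL and TFRC were 0.05 each, so the size of the first and the sign of the second rest on it. No group had the 4 libraries needed to test for a single library far from the others.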

How the results depend on the processing

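Of the 41 calls of the 10 genes, 13 held in every setting run, among them all HMOX1 calls against vehicle at 500 and 100 µg/mL, FTL, TFRC and SLC48A1 with Soshiho-tang at 500 µg/mL against vehicle, and SLC40A1 with Yijin-tang at 20 µg/mL. No called value changed its sign: signs changed in 89 of 2626 alternative values, called in neither fit. DESeq2 size factors and leaving out mitochondrially encoded genes kept every count of called genes within 1.5 times. Counts that moved further follow, each after the reported count; causes were not tested. Counts at vehicle comparisons first: in the fit of only the groups compared, which has fewer libraries, Soshiho-tang gave 8 after 5 at 500 µg/mL and 4 after 1 at 20 µg/mL, Yijin-tang 5 after 1 at 500 µg/mL and 1 after 2 at 20 µg/mL, and Okbyeongpung-san 1 after 5, 5 after 0 and 5 after 1 at 500, 100 and 20 µg/mL. That fit gave 0 after 2 for Okbyeongpung-san 500 against 20 µg/mL, 0 after 3 for Soshiho-tang against Okbyeongpung-san, 0 after 2 for Yijin-tang against Okbyeongpung-san, and 0 after 2 and 0 after 1 for the differences of dose effects from Okbyeongpung-san. Without a filter on low counts, Soshiho-tang at 100 and at 20 µg/mL gave 2 after 1, Yijin-tang at 500 µg/mL 5 after 1, Okbyeongpung-san at 100 µg/mL 1 after 0 and 500 against 20 µg/mL 4 after 2, Soshiho-tang against Yijin-tang 3 after 5, and the dose effects of Yijin-tang and Okbyeongpung-san 2 after 1. With a length and GC offset, Soshiho-tang gave 2 after 1 at 100 µg/mL and 3 after 1 at 20 µg/mL, Yijin-tang 5 after 1 at 500 µg/mL and 6 after 3 at 100 µg/mL, Okbyeongpung-san 2 after 0 at 100 µg/mL and 1 after 2 for 500 against 20 µg/mL, Yijin-tang against Okbyeongpung-san 1 after 2, and the dose effects of Soshiho-tang and Yijin-tang 2 after 0. With batch as a factor, Yijin-tang against Okbyeongpung-san gave 5 after 2 and Yijin-tang at 500 µg/mL 2 after 1. The DESeq2 test gave 1 after 0 for Okbyeongpung-san at 100 µg/mL. Any pairing of libraries by replicate number was weak, but it was not excluded. The correlation of deviations in 111 same-number pairs ran from -0.19 to 0.30 with a median of 0.02. In 216 different-number pairs it ran from -0.34 to 0.22 with a median of -0.01. It exceeded 0.1 in 19 of the former and 21 of the latter, and 14 of 27 libraries were closest to their own number. The replicate block called more genes in every comparison, such as 6065 after 5783 for Soshiho-tang at 500 µg/mL against vehicle. With the replicate block, Okbyeongpung-san at 100 µg/mL gave 1 after 0.

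With 1 library left out at a time, the number of the 10 genes called against vehicle at 500, 100 and 20 µg/mL ran from 4 to 5, 1 to 2 and 0 to 0 for Soshiho-tang, 1 to 1, 1 to 2 and 1 to 2 for Yijin-tang, and 2 to 7, 0 to 0 and 0 to 1 for Okbyeongpung-san. For 500 against 20 µg/mL it ran from 4 to 6, 1 to 1 and 1 to 9. At 500 µg/mL it ran from 0 to 3 for Soshiho-tang against Yijin-tang, 0 to 7 for Soshiho-tang against Okbyeongpung-san and 0 to 7 for Yijin-tang against Okbyeongpung-san, and for the differences of dose effects from 0 to 1, 0 to 6 and 0 to 4 in the same order. Where this leaves 1 library of Okbyeongpung-san, it is assumed to vary like the other groups. Wherever Okbyeongpung-san 500 µg/mL took part, the count was highest without its replicate 3. The number of all genes called, which sets the background, moved by more than 1.5 times in some setting, single libraries left out included, in 16 of 18 comparisons. Against vehicle at 500, 100 and 20 µg/mL, Okbyeongpung-san had 2610, 1656 and 1773 genes called, with ranges of 436 to 4321, 190 to 4573 and 259 to 4647. Yijin-tang had 2737 (1613 to 4262), 2568 (1213 to 3292) and 1789 (551 to 2642), and Soshiho-tang 1879 (681 to 2512) at 100 and 1401 (512 to 2993) at 20 µg/mL. For 500 against 20 µg/mL, Yijin-tang had 123 (54 to 255) and Okbyeongpung-san 278 (0 to 4054). At 500 µg/mL Soshiho-tang against Yijin-tang had 2200 (1361 to 3462), Soshiho-tang against Okbyeongpung-san 3263 (608 to 5448) and Yijin-tang against Okbyeongpung-san 403 (3 to 4136). In the same order, the differences of dose effects had 705 (454 to 1369), 1224 (473 to 3598) and 28 (4 to 2553).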
